A study of Mus musculus with 3 samples.

Results

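Cxcl14-led resting basal keratinocytes are cells of the deepest layer of mouse ear epidermis in which the chemokine gene Cxcl14 outweighed Mmp3, Thy1 and Igfbp2. They numbered 479 of the 5340 cells kept from 6078 barcodes, with 69 in replicate 1, 280 in replicate 2 and 130 in replicate 3. Every cell came from untreated ear skin of C57BL/6N mice aged 9 weeks, in 3 single-cell RNA libraries that form 1 group of replicates. Skin was treated with dispase, the lifted epidermis was dissociated with trypsin and EDTA, and the cell suspension was frozen before library preparation, per the labels' protocols. Whether the replicates are separate animals is not stated, and the p-values below may measure only the spread between libraries. Cells were kept if they had 500 genes or more and no more than 10% of their unique molecular identifiers (UMIs, counts of captured transcripts) from mitochondrial genes. Members had at least 0.5% of their UMIs from Krt5 and Krt14, under 0.5% from Krt1 and Krt10, fewer than 2 UMIs of the mitosis genes Ube2c, Cdc20, Ccnb1, Cenpa and Cenpf, and fewer than 10 of the histone genes Hist1h1b, Hist1h2ap and Hist1h2ae. They also had at least 3 Cxcl14 UMIs, and more Cxcl14 UMIs than UMIs of Mmp3, Thy1 and Igfbp2 together. The cells were thus chosen by the measured values of these 16 genes. Any values of them below are a description, and their test results are not used.

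Basal keratinocytes sit on the basement membrane, carry the keratins KRT5 and KRT14, and supply the cells that move up and differentiate; those outside the cell cycle are called resting here. CXCL14 is a chemokine made by healthy epithelia, including the epidermis, and CCL27 is a keratinocyte chemokine that attracts skin-homing T cells through the receptor CCR10. THY1 is a membrane glycoprotein, MMP3 a matrix-degrading protease and IGFBP2 a binding protein for insulin-like growth factors.

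The promoters of Cxcl14 and Mmp3 are shown because the classes are named from these genes, together with that of Ccl27a, a given marker of the Cxcl14-led cells. Sequences are from RefSeq, build GRCm38.p6, covering 300 bases from upstream of the annotated start to just past it, on the coding strand. Capitals mark matches on either strand to a TATA box (TATAAA), an AP-1 motif (TGANTCA) or a GC box (GGGCGG).
Cxcl14, chr13:56296502-56296801, minus strand: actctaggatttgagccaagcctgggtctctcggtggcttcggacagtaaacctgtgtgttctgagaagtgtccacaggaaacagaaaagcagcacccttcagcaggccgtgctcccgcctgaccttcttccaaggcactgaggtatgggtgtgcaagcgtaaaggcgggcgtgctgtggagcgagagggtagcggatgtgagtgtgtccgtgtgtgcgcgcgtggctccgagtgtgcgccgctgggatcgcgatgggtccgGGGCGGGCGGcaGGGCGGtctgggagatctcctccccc
Ccl27a, chr4:41770163-41770462, minus strand: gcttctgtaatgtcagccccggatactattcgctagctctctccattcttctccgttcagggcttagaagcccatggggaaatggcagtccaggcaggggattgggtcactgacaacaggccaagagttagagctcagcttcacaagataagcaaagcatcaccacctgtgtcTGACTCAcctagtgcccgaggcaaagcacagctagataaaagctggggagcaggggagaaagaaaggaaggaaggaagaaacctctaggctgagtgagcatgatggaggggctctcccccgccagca
Mmp3, chr9:7445572-7445871, plus strand: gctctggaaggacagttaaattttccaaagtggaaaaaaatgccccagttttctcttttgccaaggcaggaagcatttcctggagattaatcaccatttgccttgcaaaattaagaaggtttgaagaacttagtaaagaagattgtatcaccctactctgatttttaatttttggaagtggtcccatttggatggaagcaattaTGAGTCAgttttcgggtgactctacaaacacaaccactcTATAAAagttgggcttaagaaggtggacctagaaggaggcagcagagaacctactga
The Cxcl14 window held 3 GC boxes, of which a pair overlaps, with 62.7% G and C, the Ccl27a window 1 AP-1 motif with 53.7%, and the Mmp3 window 1 AP-1 motif and 1 TATA box with 40.0% G and C. The Ccl27a window is the most downstream of the 3 starts listed for that gene. Of 32851 promoters of the same length, 35.7% held a GC box, 7.81% the AP-1 motif and 13.6% the TATA box.

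Cxcl14-led cells made up 18.3% of the resting basal cells in replicate 1 (exact Clopper-Pearson 95% interval 14.5 to 22.6; 377 resting basal cells), 34.0% in replicate 2 (30.8 to 37.4; 823 cells) and 16.8% in replicate 3 (14.2 to 19.6; 776 cells). Replicate 2 stood above the other libraries, whose intervals overlapped, and the mean was 23.03% ± 9.55 (SD, n = 3). Of all kept cells they made up 7.31%, 12.7% and 5.95% in replicates 1, 2 and 3. The class they are set against below, resting basal cells in which Mmp3, Thy1 and Igfbp2 together reached 3 UMIs and outweighed Cxcl14, held 222, 231 and 379 cells. The other 665 resting basal cells had too few UMIs of these genes or a tie. Intervals from counts of cells or UMIs cover counting error only, and the shares describe the cell suspension.

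The libraries held 15926683, 24480473 and 28176712 UMIs in replicates 1, 2 and 3. The median Cxcl14-led cell had 11189, 7186.5 and 7583.5 UMIs, against 12761.5, 8647 and 9174 in Mmp3/Thy1/Igfbp2-led cells. Scrublet marked 0 Cxcl14-led cells and 1 Mmp3/Thy1/Igfbp2-led cell as doublets, and none was removed. Pairs of libraries shared 3, 4 and 9 cell barcodes, none of them of a Cxcl14-led cell. Langerhans cell, T cell, melanocyte, Merkel cell, fibroblast and endothelial markers summed to at most 35.2 CPM (UMIs per 1000000 UMIs of the class in a library) each in Cxcl14-led cells and at most 33.6 CPM each in Mmp3/Thy1/Igfbp2-led cells. Fibroblast markers stood at 3.97, 0 and 0 CPM in Cxcl14-led cells and 33.6, 0.502 and 1.11 CPM in Mmp3/Thy1/Igfbp2-led cells, and T cell markers at 0, 0.972 and 0.977 CPM in Cxcl14-led cells and 0, 18.1 and 0 CPM in Mmp3/Thy1/Igfbp2-led cells. Their part in the differences below was not tested.

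The division followed a gradient without a gap between the classes. Members had 3 to 48 Cxcl14 UMIs, with a median of 7, and 182 of the 479 (38.0%) also had at least 3 UMIs of Mmp3, Thy1 and Igfbp2. Thy1 was present in 323 members, and 107 members had no UMI of the 3 genes. In the other direction, 197 of 832 Mmp3/Thy1/Igfbp2-led cells had at least 3 Cxcl14 UMIs. Among the 561 resting basal cells with at least 10 UMIs of the 4 genes, Cxcl14 supplied under 20% in 163 cells, 20 to 40% in 108, 40 to 60% in 94, 60 to 80% in 103 and 80% or more in 93.

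**Figure D1:**
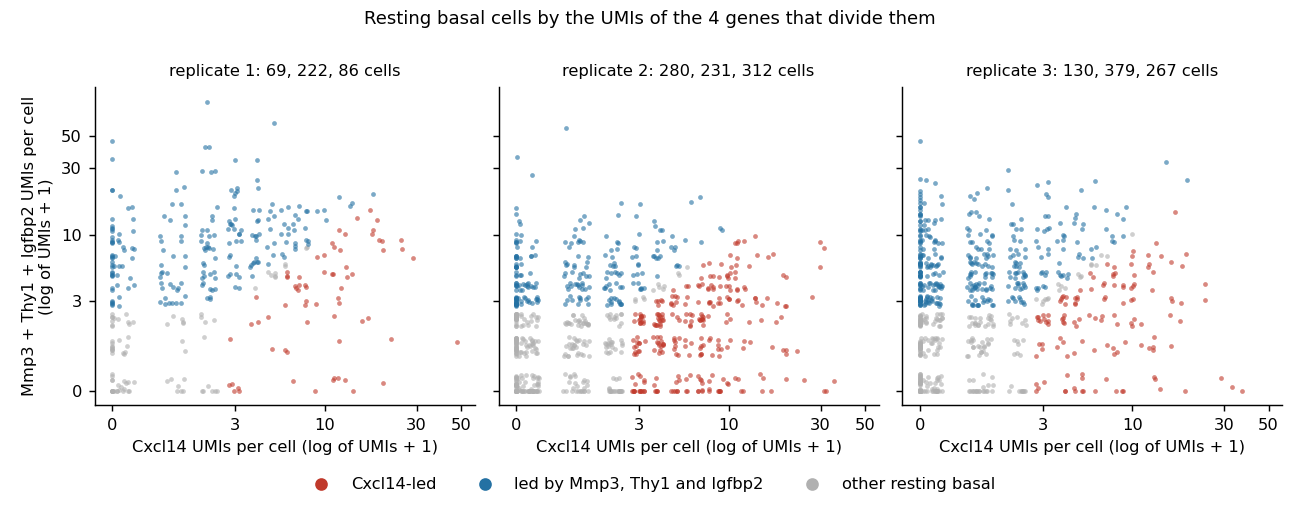
Cxcl14 UMIs (horizontal) against the summed UMIs of Mmp3, Thy1 and Igfbp2 (vertical) in each resting basal cell, both on a log axis of UMIs + 1 with a small random offset, 1 panel per library, coloured by class. The 479 Cxcl14-led cells lie from 3 to 48 Cxcl14 UMIs and adjoin the 832 Mmp3/Thy1/Igfbp2-led cells with no empty band between them.

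Cxcl14 itself stood at 1049.9, 1098 and 1089.9 CPM in the Cxcl14-led cells of replicates 1, 2 and 3, against 202, 161 and 143 CPM in Mmp3/Thy1/Igfbp2-led cells. The 69 members with exactly 3 Cxcl14 UMIs had 549, 618 and 879.7 CPM of Ccl27a in replicates 1, 2 and 3, and the 63 cells outside the class in which Cxcl14 led with 2 UMIs had 401, 476 and 193 CPM. The 46 members in which Cxcl14 led by 1 UMI had 96.3, 1019 and 344 CPM of Ccl27a, the 41 cells tied at 3 or more UMIs had 448, 207 and 259 CPM, and the 60 cells of the other class in which Cxcl14 trailed by 1 UMI had 110.0, 229 and 178 CPM. The order of these sets differed between libraries, and in replicate 1 the members ahead by 1 UMI were the lowest. The sets were small in replicate 1, with 6, 7, 5, 10 and 14 cells in the order given.

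Of the given markers of these cells, Cxcl14 and Krt14 belong to the rule. Krt14 is among 6 basal keratinocyte markers, with Krt5, Itga6, Itgb4, Col17a1 and Trp63. These summed to 22403, 19611 and 19883 CPM in Cxcl14-led cells, below the 26073, 23525 and 25801 CPM of Mmp3/Thy1/Igfbp2-led cells, and were not tested as a sum. Ccl27a, Krt15 and Ackr4 were present in every library of the class but did not set it apart equally. Ccl27a was detected in 44 of 69, 192 of 280 and 85 of 130 Cxcl14-led cells (63.8%, 68.6% and 65.4%), and in 41.4%, 46.3% and 34.8% of Mmp3/Thy1/Igfbp2-led cells. With cells thinned to 3000 UMIs and shallower cells left out (0, 8 and 5 Cxcl14-led cells and 5, 6 and 7 Mmp3/Thy1/Igfbp2-led cells), the shares were 33.3%, 54.0% and 52.8% in Cxcl14-led cells, against 18.0%, 30.2% and 20.4%. In suprabasal cells a Ccl27a UMI was found in 8.47%, 7.34% and 6.08% of cells, at median depths of 21361, 13741 and 15717.5 UMIs. The shares of both resting classes lay above these. A low share can come from free RNA, whose part in these values was not tested.

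Ccl27a (chr4:41769467-41774247 in mm10) measured 338.5, 733 and 796 CPM in the Cxcl14-led cells of replicates 1, 2 and 3, against 96.6, 200.4 and 119 CPM in Mmp3/Thy1/Igfbp2-led cells. Every Cxcl14-led profile was above every profile of the other class, and replicate 1 was the lowest of the Cxcl14-led profiles. The log2 fold was 2.23 ± 0.46 (SE), with a 95% interval from 1.32 to 3.14. This interval is a normal approximation from the SE and can be too narrow with so few libraries. The adjusted p was 0.173 (edgeR quasi-likelihood test with Benjamini-Hochberg adjustment), so Ccl27a did not pass. Over the alternatives the adjusted p ran between 1.49e-04 and 0.559; it passed with DESeq2 and with thinned cells. Chromosome 4 holds near-identical copies of Ccl27a, between which counting can split reads.

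Other resting basal cells stood between the classes for Ccl27a, at 374, 321 and 207 CPM, and replicate 1 of these cells was above replicate 1 of the Cxcl14-led cells. Cycling basal cells had 97.0, 94.6 and 78.9 CPM, basal cells with suprabasal keratin 42.5, 195 and 36.2 CPM, and suprabasal cells 8.76, 14.6 and 6.60 CPM.

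Krt15, a basal keratin also used as a marker of the hair follicle bulge, measured 1124, 1314 and 1120.15 CPM in Cxcl14-led cells, against 945, 995 and 857 CPM in Mmp3/Thy1/Igfbp2-led cells. It was higher in Cxcl14-led cells with a log2 fold of 0.38 ± 0.09 (SE) and an adjusted p of 0.0276 (edgeR, Benjamini-Hochberg), and the profiles did not overlap. The call ended in 8 of 16 alternatives: when replicate 2 (adjusted p 0.328) or replicate 3 (0.161) was left out, without the follicle marker cells described below (0.380), with total-UMI scaling (0.0645), with DESeq2 (0.1002), with no replicate block (0.687), among cells with 1000 genes or more and no more than 5% mitochondrial UMIs (0.335) and with no minimum of UMIs for the other class (0.165). The highest Krt15 was not in Cxcl14-led cells: other resting basal cells had 1556, 1532 and 1537 CPM.

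Ackr4 encodes an atypical receptor that scavenges chemokines such as CCL19 and CCL21. It measured 161, 173 and 176 CPM in Cxcl14-led cells and 171, 167 and 142 CPM in Mmp3/Thy1/Igfbp2-led cells, which overlapped. The log2 fold was 0.12, with a 95% interval from -0.15 to 0.38 by the same normal approximation. The adjusted p was 0.884 (edgeR, Benjamini-Hochberg), and the log2 fold was -0.023 without replicate 3. Other resting basal cells had 159, 150.5 and 148 CPM.

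**Figure D2:**
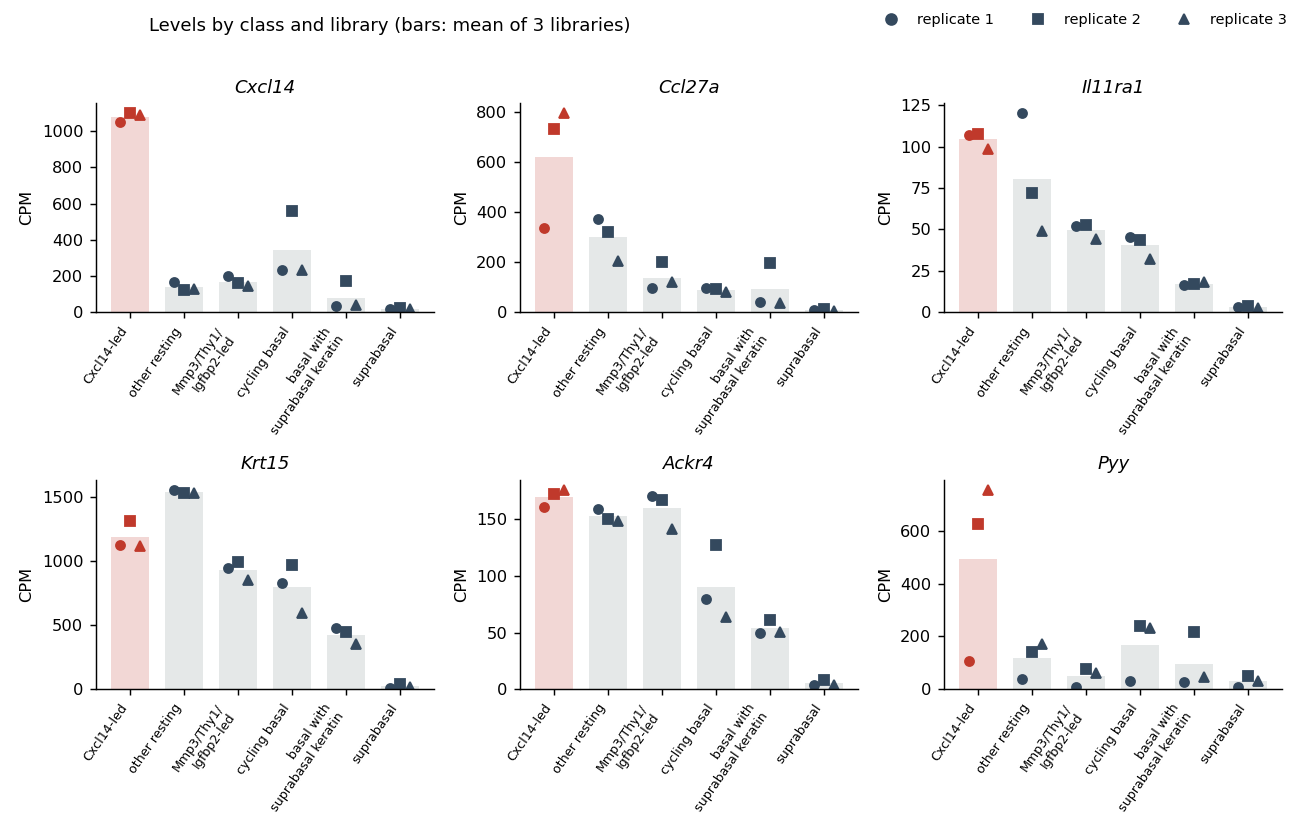
CPM of 6 genes (vertical, from 0) in 6 classes of keratinocytes, with a point for each library and a bar for the mean of 3 libraries. Cxcl14 chose the Cxcl14-led class and is shown as a description; Ccl27a is highest on average in Cxcl14-led cells, Krt15 in other resting basal cells, and Ackr4 is similar in the 3 resting classes.

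Some Cxcl14-led cells carried markers of the hair follicle, an appendage whose bulge holds stem cells marked by CD34, LGR5 and SOX9. Cells with at least 2 UMIs of Cd34, Lgr5, Sox9, Krt79 and Krt17 together made up 9 of 69, 12 of 280 and 18 of 130 Cxcl14-led cells (13.0%, 4.29% and 13.8%), against 3 of 222, 1 of 231 and 13 of 379 Mmp3/Thy1/Igfbp2-led cells. Such cells were not particular to the Cxcl14-led class: they made up 17.4%, 7.37% and 6.37% of other resting basal cells. The summed bulge and follicle markers, Postn included, ranged between 327 and 1329 CPM in Cxcl14-led cells. They ranged between 289 and 449 CPM in Mmp3/Thy1/Igfbp2-led cells and between 327 and 706 CPM in other resting basal cells. Krt17, a keratin of follicles and stressed epidermis, was at 989, 6.81 and 42.0 CPM in Cxcl14-led cells; in replicate 1 the 5 highest cells held 99.5% of its UMIs, and the highest alone held 608. Results below are therefore also given without the cells that had at least 2 UMIs of the 5 markers, an alternative chosen after seeing the data.

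Between Cxcl14-led and Mmp3/Thy1/Igfbp2-led resting cells, few genes were called. Of 9466 genes tested outside the rule, 42 rose in Cxcl14-led cells (0.444%) and 13 fell (0.137%), 55 or 0.581% in all, at an adjusted p under 0.05 in edgeR's quasi-likelihood test with library as a block. At an unadjusted p under 0.05, 808 genes (8.54%) passed, and 28 of the calls (0.296% of genes tested) were at least 2-fold. Libraries of the classes did not overlap for 1309 genes (13.8%). Without the library block 8 genes were called, and without the follicle marker cells 36, of which 26 were among the 55. Of the 55, 26 were still called without replicate 1, 19 without replicate 2 and 19 without replicate 3. In each of these fits 9 were called: Il11ra1, Bbox1, Nbl1, Csrp1, H2-D1, Pkm, Ctgf, Lgr5 and Tgm5. Of these, Ctgf, Lgr5 and Tgm5 were too low to be tested without the follicle marker cells.

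The receptor gene Il11ra1 was the most stable difference. It encodes the alpha receptor for interleukin 11, which signals with gp130. It measured 107, 107 and 98.6 CPM in the Cxcl14-led cells of replicates 1, 2 and 3, against 51.8, 52.7 and 44.0 CPM in Mmp3/Thy1/Igfbp2-led cells. The levels were nearly the same in the 3 libraries of each class, with no overlap. Il11ra1 rose 2.16-fold, a log2 fold of 1.11 ± 0.13 (SE, n = 3 libraries) with an adjusted p of 7.70e-07 (edgeR, Benjamini-Hochberg). It was called in all 16 alternatives, at adjusted p between 2.71e-13 and 7.77e-04, with a log2 fold of 1.03 without the follicle marker cells.

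Il11ra1 was seen in 66.7%, 43.6% and 45.4% of Cxcl14-led cells, against 44.6%, 33.8% and 29.3% of Mmp3/Thy1/Igfbp2-led cells; after thinning to 3000 UMIs, with the same cells left out, the shares were 33.3%, 22.1% and 23.2%, against 13.4%, 16.0% and 11.6%. Suprabasal cells had a UMI in 7.41%, 4.59% and 3.76%. Other resting basal cells varied more, at 120.1, 72.2 and 49.2 CPM. The gene lies at chr4:41699989-41769474 on the plus strand in mm10 and overlaps Ccl27a on the opposite strand by 8 bases. The sources used here do not say whether counting used strand, so reads over these bases cannot be assigned. These bases lie at the 3' end of both genes, and the libraries read 5' transcript ends. The part of this overlap in the Il11ra1 difference was not tested. Gm13305, also on chromosome 4 and picked out after its values were seen, measured 5.29, 22.9 and 28.3 CPM in Cxcl14-led cells and 2.45, 6.53 and 6.65 CPM in Mmp3/Thy1/Igfbp2-led cells. The classes overlapped across libraries; it rose by a log2 fold of 1.87 with an adjusted p of 0.00306 (edgeR, Benjamini-Hochberg), and was too low to be tested without replicate 2 or 3.

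Among the other genes that rose, several encode enzymes and secreted or cytoskeletal proteins. Bbox1, the enzyme of the last step of carnitine synthesis, measured 46.3, 85.6 and 70.3 CPM in Cxcl14-led cells and 33.2, 47.2 and 29.6 CPM in Mmp3/Thy1/Igfbp2-led cells. It was higher within every library although the classes overlapped across libraries, with a log2 fold of 0.93 ± 0.15 (SE) and an adjusted p of 3.70e-04 (edgeR, Benjamini-Hochberg), or 0.174 with no replicate block. Nbl1, a secreted antagonist of BMP signals, measured 63.5, 76.3 and 88.9 CPM in Cxcl14-led cells and 43.0, 39.2 and 44.6 CPM in Mmp3/Thy1/Igfbp2-led cells, a log2 fold of 0.88 without overlap. Csrp1, a LIM-domain protein of the actin cytoskeleton, measured 107, 78.8 and 103.5 CPM in Cxcl14-led cells and 65.4, 46.2 and 59.8 CPM in Mmp3/Thy1/Igfbp2-led cells, a log2 fold of 0.79 without overlap. Ephx1, a microsomal epoxide hydrolase, rose by a log2 fold of 0.64, but its adjusted p was 0.224 without replicate 2. Nbl1 and Csrp1 had adjusted p of 0.175 and 0.1297 among cells with 1000 genes or more and no more than 5% mitochondrial UMIs, and passed in the other alternatives.

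Pdlim4 (PDZ and LIM domains), Afdn (a junction adaptor bound by nectins), Hivep2 (a zinc finger transcription factor), Pik3r1 (a regulatory subunit of phosphoinositide 3-kinase) and Tmem176b (a membrane protein) also rose, with log2 folds between 0.53 and 0.71. Each lost its call in at least 1 of the fits that left out a library. Without replicate 2 the adjusted p was 0.0542 for Pdlim4, 0.484 for Hivep2, 0.217 for Pik3r1 and 0.0750 for Tmem176b; without replicate 1 it was 0.197 for Pdlim4, 0.473 for Afdn, 0.0638 for Hivep2 and 0.137 for Tmem176b. Without replicate 3 it was 0.457 for Afdn, 0.0780 for Hivep2, 0.317 for Pik3r1 and 0.514 for Tmem176b. Without the follicle marker cells the log2 fold of Afdn was 0.04 instead of 0.66 and that of Pik3r1 0.27 instead of 0.56.

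Genes of MHC class I antigen presentation and the interferon response formed the list with the most calls. Of its 24 tested members 5 rose and none fell, against 0.444% of all genes tested higher and 0.137% lower. The median log2 fold was 0.44, against -0.00 for all genes tested. H2-D1, a classical class I heavy chain, measured 286, 382 and 290.05 CPM in Cxcl14-led cells and 189, 279 and 193 CPM in Mmp3/Thy1/Igfbp2-led cells. Replicate 2 was highest in both classes, and the classes did not overlap. The log2 fold of H2-D1 was 0.57 ± 0.09 (SE), with an adjusted p of 2.37e-04 (edgeR, Benjamini-Hochberg), and 0.62 without the follicle marker cells; with no replicate block the adjusted p was 0.772, and with thinned cells 0.0582.

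The non-classical heavy chains H2-Q4 and H2-Q7 were low. H2-Q4 measured 18.5, 26.3 and 30.3 CPM in Cxcl14-led cells and 6.65, 8.54 and 6.65 CPM in Mmp3/Thy1/Igfbp2-led cells, a log2 fold of 1.73; its adjusted p was 0.0508 without replicate 1. H2-Q7 measured 6.61, 12.2 and 15.6 CPM in Cxcl14-led cells and 0.350, 4.02 and 2.22 CPM in Mmp3/Thy1/Igfbp2-led cells, a log2 fold of 2.40; its adjusted p was 0.0608 without replicate 1 and 0.294 without replicate 3, and it was not tested without replicate 2. Class I genes are near-identical to each other, so counting can split their reads. Psmb9, an inducible proteasome subunit, and Ifitm3, an interferon-induced membrane protein, rose by log2 folds of 1.07 and 0.50. Psmb9 had an adjusted p of 0.0557 without replicate 1 and 0.398 without replicate 3, and Ifitm3 0.324 without replicate 3. H2-K1 (0.82, adjusted p 0.0811), B2m (0.86, 0.332) and Psmb8 (1.62, 0.369) did not pass, and neither did Irf1 (0.35). Markers of Langerhans cells, which present antigen, summed to 17.2, 26.3 and 35.2 CPM in Cxcl14-led cells and 13.3, 28.1 and 14.1 CPM in Mmp3/Thy1/Igfbp2-led cells, and their part in these differences was not tested.

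Other chemokine genes did not pass between the resting classes: of 8 tested chemokines and receptors 0 were called, with a median log2 fold of 0.52. Cxcl16, a membrane-bound chemokine, had a log2 fold of 0.67 ± 0.21 (SE) with an adjusted p of 0.184, and the neutrophil chemokine Cxcl1 had 0.92 with an adjusted p of 0.520 (edgeR, Benjamini-Hochberg). The scavenger receptor Ackr3 had -0.02, and among cytokines Il34, a ligand of the CSF1 receptor that supports Langerhans cells, had 0.13.

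Genes that fell included Pkm and Slc16a1. Pkm, pyruvate kinase, measured 305, 228 and 290.05 CPM in Cxcl14-led cells and 418, 329 and 463 CPM in Mmp3/Thy1/Igfbp2-led cells; all Cxcl14-led profiles were lower, with a log2 fold of -0.52 ± 0.09 (SE) and an adjusted p of 6.16e-04 (edgeR, Benjamini-Hochberg), or 0.528 with no replicate block. Slc16a1, a transporter of lactate and other monocarboxylates, had a log2 fold of -1.43, with 5.22 ± 1.09 CPM in Cxcl14-led cells and 15.5 ± 2.17 CPM in Mmp3/Thy1/Igfbp2-led cells (SD, n = 3 each). These were the 2 calls among 18 genes of glycolysis and glucose uptake, whose median log2 fold was -0.13; Gapdh had -0.17 and Ldha -0.20 without passing. The call for Slc16a1 ended whichever replicate was left out, at adjusted p of 0.0972, 0.0792 and 0.148 without replicates 1, 2 and 3.

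Tpm2 (a tropomyosin), S100a4 (a calcium-binding protein), Lgr6 (a receptor for R-spondins that marks epidermal and follicle cells) and Cd109 (a membrane protein that modulates TGF-beta signals) fell by log2 folds between -0.45 and -0.69. Lgr6 measured 37.0, 29.2 and 36.1 CPM in Cxcl14-led cells and 48.3, 52.7 and 64.8 CPM in Mmp3/Thy1/Igfbp2-led cells. Without replicate 2, the adjusted p was 0.374 for Lgr6, 0.374 for S100a4, 0.283 for Tpm2 and 0.190 for Cd109; without replicate 3 it was 0.262, 0.0706, 0.1799 and 0.336 in the same order. Cd109 (0.0680) also missed without replicate 1. Gsta4, a glutathione transferase, was the 1 call among 21 metallothionein and antioxidant genes, with a log2 fold of -1.46, and had an adjusted p of 0.0792 without replicate 2 and 0.584 without replicate 3. Without the follicle marker cells S100a4 had a log2 fold of -1.31 instead of -0.68, while Lgr6 (-0.64, adjusted p 0.0720) and Cd109 (-0.43, 0.0543) no longer passed.

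**Figure D3:**
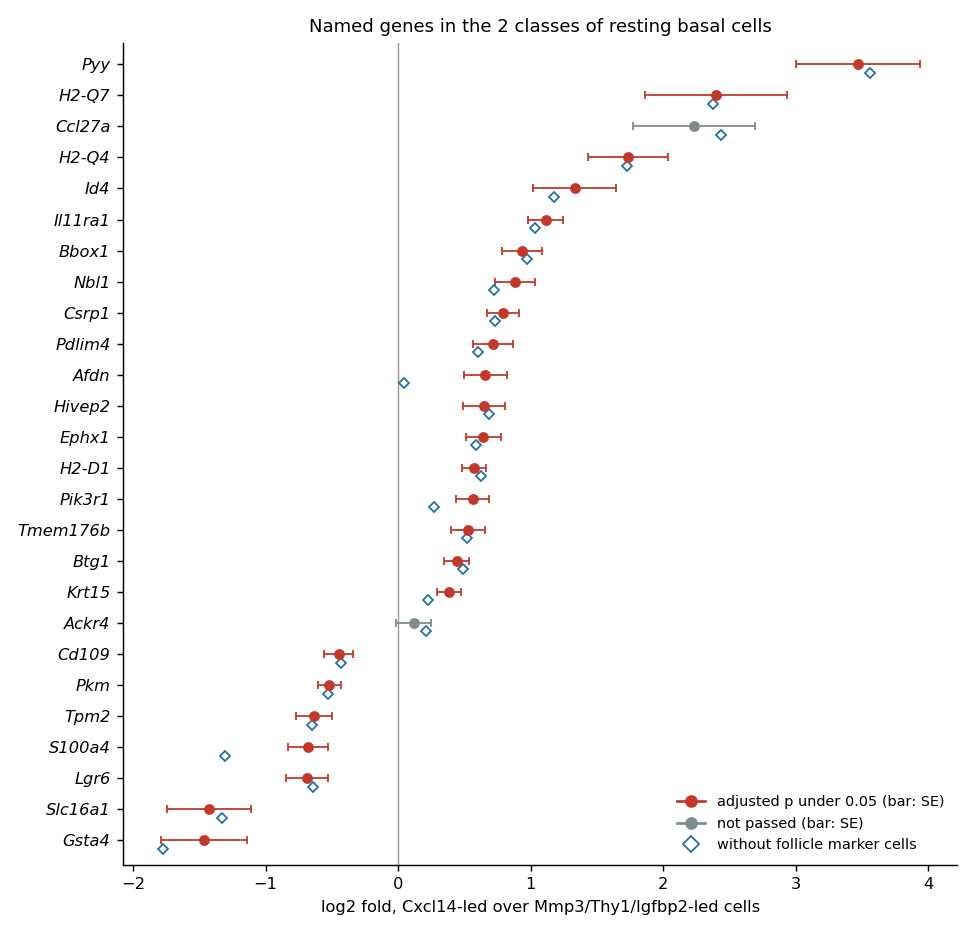
Log2 fold of named genes (horizontal), Cxcl14-led over Mmp3/Thy1/Igfbp2-led cells, from 3 libraries a class; bars are SE and open diamonds are the same fit without follicle marker cells. Some named genes, Ctgf and Lgr5 among them, are not drawn. Il11ra1 and H2-D1 keep their position without those cells, while Afdn moves to 0.04.

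No hemidesmosome, integrin or basement membrane gene was called between these classes, but the fit can miss differences. In simulated counts with a set spread it recovered 17.9% of 1.5-fold and 61.2% of 2-fold changes. Of 15 hemidesmosome and integrin genes and 14 basement membrane genes, 0 were called, with median log2 folds of -0.03 and -0.08; Col17a1, a hemidesmosome collagen, averaged 1157 CPM in Cxcl14-led cells and 1202 CPM in Mmp3/Thy1/Igfbp2-led cells, and Itga6, an integrin subunit of hemidesmosomes, had a log2 fold of -0.28 with an adjusted p of 0.632 (edgeR, Benjamini-Hochberg). The 50 epidermal transcription factors, 16 Notch genes, 12 genes of the EGF receptor family, 8 genes of the IGF axis, 18 D cyclins and CDK inhibitors, 17 heat shock chaperones and 19 adhesion and junction genes also held 0 calls, with median log2 folds between -0.36 and 0.13. The 45 cell cycle genes held 0 calls with a median of -0.65, also with genes at 0 set to 3 counts over the class; the rule limits mitotic cells in both classes. Among 16 genes of BMP signals and Id genes, Id4, an inhibitor of helix-loop-helix factors, rose by a log2 fold of 1.33, with an adjusted p of 0.0983 without the follicle marker cells, 0.295 without replicate 1 and 0.217 without replicate 3. Among 26 immediate early genes Btg1, an antiproliferative gene, rose by 0.44, with an adjusted p of 0.319 without replicate 3.

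Lgr5, the R-spondin receptor of bulge and germ stem cells, measured 9.26, 8.75 and 12.7 CPM in Cxcl14-led cells, from 38 UMIs, and 0 UMIs were counted in Mmp3/Thy1/Igfbp2-led cells. Against a floor of 3 UMIs over that class, Lgr5 was at least 27.9-fold higher. It was seen in 2, 5 and 8 Cxcl14-led cells. Ctgf, a secreted matricellular protein and YAP target, had 74 UMIs in Cxcl14-led cells and 2 in Mmp3/Thy1/Igfbp2-led cells, a ratio of 81.6 (exact 95% counting interval 21.8 to 686). The call for Ctgf ended with DESeq2 (adjusted p 0.943) and among cells with 1000 genes or more and no more than 5% mitochondrial UMIs (0.287). Lgr5 is among the genes that define the follicle marker cells, so leaving those cells out lowers its count by construction. Both Lgr5 and Ctgf were then too low to be tested, as were 6 more of the 55 calls, Tgm5 among them. The remaining 47 were tested and 46 had the same sign. Cd34 and Sox9 did not pass, at adjusted p of 0.151 and 0.173 (edgeR, Benjamini-Hochberg).

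Pyy, which encodes the gut peptide YY and is also transcribed in keratinocytes, had the largest fold among called genes above 50 CPM, and much of it came from few cells in replicates 1 and 3. It measured 106, 626 and 755 CPM in Cxcl14-led cells and 6.65, 77.3 and 61.8 CPM in Mmp3/Thy1/Igfbp2-led cells, a log2 fold of 3.47 ± 0.47 (SE) with an adjusted p of 0.0459 (edgeR, Benjamini-Hochberg). A Pyy UMI was present in 20.3%, 33.6% and 24.6% of Cxcl14-led cells, against 4.95%, 9.96% and 8.97% of Mmp3/Thy1/Igfbp2-led cells. The 5 highest cells held 80%, 31.3% and 78.5% of the Pyy UMIs of Cxcl14-led cells, and the highest cell in replicate 3 had 188. The adjusted p was 0.436 without replicate 1, 0.211 without replicate 2 and 0.0543 without the follicle marker cells. Pyy was the 1 call among 26 early suprabasal genes, whose median log2 fold was -0.56.

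Within the Cxcl14-led cells, the stratum with the most Cxcl14 had the highest Ccl27a, Il11ra1 and Krt15 in each library. Below it Il11ra1 and Krt15 kept their order in every library, and Ccl27a did not in replicate 1. The strata use Cxcl14, which also chose the cells, and were not tested. Members were divided at 500 and 1000 Cxcl14 CPM into 80, 184 and 215 cells. Ccl27a measured 323, 223 and 455 CPM in replicate 1 from the lowest to the highest stratum, 486, 669 and 919 CPM in replicate 2, and 167, 627 and 1367 CPM in replicate 3. In replicate 1 the middle stratum had the least. Il11ra1 measured 64.7, 106 and 126 CPM in replicate 1, 75.7, 114 and 115 CPM in replicate 2, and 58.2, 75.3 and 147 CPM in replicate 3. In replicate 2 the upper strata were level for Il11ra1. Krt15 measured 863, 891 and 1461 CPM in replicate 1. It had 1123, 1239 and 1485 CPM in replicate 2, and 927, 1154 and 1215 CPM in replicate 3. This order depended on how the strata were drawn. With members divided by Cxcl14 UMIs, the stratum of 3 to 5 UMIs had the highest Krt15 in each library, at 1314, 1565 and 1362 CPM. Ackr4 had no shared order, with 187, 179 and 133 CPM in replicate 1 and 132, 153 and 226 CPM in replicate 3. Median depth was 8878.5, 7702.5 and 6981 UMIs from the lowest to the highest stratum, and the part of depth in these values was not tested.

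**Figure D4:**
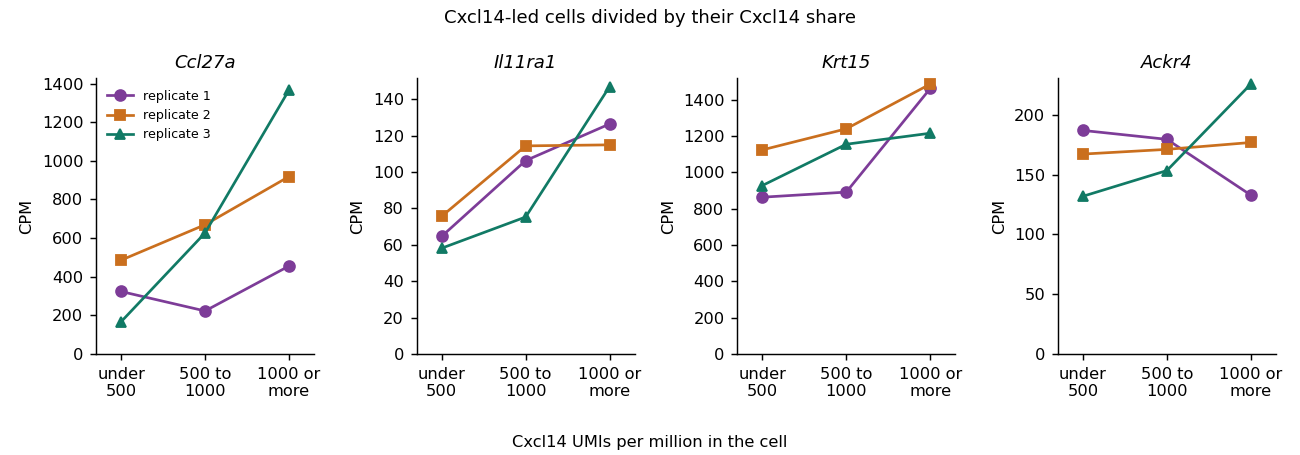
CPM (vertical, from 0) of Ccl27a, Il11ra1, Krt15 and Ackr4 in Cxcl14-led cells divided by their Cxcl14 CPM (horizontal, low to high), with a line for each library. Ccl27a, Il11ra1 and Krt15 are highest in the top stratum of every library. Ackr4 is highest in the lowest stratum in replicate 1 and in the top stratum in replicates 2 and 3.

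Against cycling basal cells (94, 127 and 198 cells with mitosis or histone UMIs above the limits), Cxcl14-led cells differed widely, with 1444 of 9466 genes higher (15.3%) and 1587 lower (16.8%), 32% in all (edgeR, Benjamini-Hochberg). With scaling to total UMIs instead of TMM the split was 1070 higher and 2009 lower, and the median of all genes moved to -0.10 on the log2 scale. Libraries of Cxcl14-led and cycling basal cells did not overlap for 3846 of the 9466 genes (40.6%). Of 45 cell cycle genes 43 fell, which follows from how the cells were chosen. Aspm, a spindle protein, had 0 UMIs in Cxcl14-led cells and was at least 176-fold lower against a floor of 3 UMIs over the class. Genes named below need not set Cxcl14-led cells apart from Mmp3/Thy1/Igfbp2-led cells. Between those resting classes 0 of 18 D cyclins and CDK inhibitors and 0 of 8 chemokine and receptor genes were called. The same held for 15 hemidesmosome and integrin genes and 14 basement membrane genes. Of 24 genes of MHC class I and the interferon response 5 rose, and of 26 immediate early genes 1 rose.

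Ccnd2, cyclin D2, stood out among the genes that rose. It measured 749.7, 752 and 779 CPM in Cxcl14-led cells and 127, 152 and 205 CPM in cycling basal cells, with no overlap. The log2 fold was 2.37 ± 0.10 (SE), with an adjusted p of 2.31e-18 (edgeR, Benjamini-Hochberg). Ccnd1, cyclin D1, rose by 0.89, while the inhibitors Cdkn2d and Cdkn2c fell by log2 folds of -3.74 and -3.16.

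Of the 26 chemokines and receptors listed, 8 were tested, of which 6 rose against cycling cells and 0 fell. Of all genes tested 15.3% were higher. The median log2 fold was 0.99, against 0.01 for all genes. Ccl27a rose by a log2 fold of 2.84 ± 0.50 (SE; adjusted p 0.00544, but 0.0532 without replicate 1 and 0.0543 with only the compared classes in the fit), Ackr4 by 1.07, Cxcl16 by 0.87, Cx3cl1 by 0.92 and Cxcl1 by 1.68. The adjusted p of Cxcl16 was 0.0506 without replicate 2, that of Cx3cl1 0.0814 without replicate 1 and 0.135 without replicate 3, and Cxcl1 was too low to be tested without replicate 2. Ccl20, which attracts CCR6-bearing cells, rose by 3.54, with an adjusted p of 0.217 without replicate 1, and was too low to be tested without replicate 3. Il34 measured 122, 173 and 144 CPM in Cxcl14-led cells and 53.6, 84.0 and 62.5 CPM in cycling basal cells, a log2 fold of 1.27 without overlap. Il15 fell, at 1.74 ± 1.04 CPM in Cxcl14-led cells and 5.72 ± 0.768 CPM in cycling basal cells (SD, n = 3 each), and its call ended whichever replicate was left out, at adjusted p of 0.146, 0.251 and 0.0774 without replicates 1, 2 and 3.

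Some matrix attachment genes rose as well. Of 15 tested hemidesmosome and integrin genes 7 rose and 0 fell; Dst, which encodes the plakin dystonin, averaged 625 ± 88.3 CPM in Cxcl14-led cells and 364 ± 41.2 CPM in cycling basal cells (SD, n = 3 each), a log2 fold of 0.89. Of 14 tested basement membrane genes 4 rose and 0 fell, against 15.3% of all genes higher, with the laminin chains Lama3 and Lamb3 at 0.91 and 0.79. Of 26 immediate early genes 12 rose and 1 fell, among them Myc (1.06), Dusp1 (0.84) and Junb (0.74). Of 24 genes of MHC class I and the interferon response 11 rose and 0 fell, with Ifngr1, a chain of the interferon gamma receptor, at 0.92. Rhob, a small GTPase, rose by 2.14, Bbox1 by 2.07, Krt15 by 0.71, Egfr by 0.83, Id3 by 0.93 and Porcn, an enzyme needed for Wnt secretion, by 1.93. 

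Against basal cells that also carried suprabasal keratin (31, 63 and 86 cells with at least 0.5% of UMIs from Krt1 and Krt10), 1136 of 9466 genes rose in Cxcl14-led cells (12%) and 1181 fell (12.5%), 24.5% in all (edgeR, Benjamini-Hochberg). Libraries of these classes did not overlap for 3178 genes (33.6%). Of 26 early suprabasal genes 20 fell and 1, Pyy, rose, with an adjusted p of 0.127 for Pyy without replicate 1. The classes were divided by Krt1 and Krt10, so falls of other early suprabasal genes follow from how the cells were chosen. Other genes that change along with these keratins are tied to that choice as well. Such genes need not set Cxcl14-led cells apart from Mmp3/Thy1/Igfbp2-led cells. Between those resting classes 0 of 16 Notch genes were called. The same held for 15 hemidesmosome and integrin, 14 basement membrane, and 19 adhesion and junction genes. Notch3 measured 2.64, 2.92 and 6.84 CPM in Cxcl14-led cells and 54.3, 40.9 and 63.3 CPM in basal cells with suprabasal keratin, a log2 fold of -3.60 ± 0.34 (SE; adjusted p 9.47e-11) without overlap. In the Notch pathway, which drives keratinocytes out of the basal layer, 6 of 16 genes fell, with Hes1 at -1.34 (adjusted p 0.0558 without replicate 2), Notch1 at -0.87 and Notch2 at -1.85. The ligands Dll1 and Jag2 rose by 1.34 and 0.77, and Lfng, a glycosyltransferase that modifies Notch, rose by 2.57.

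The acute phase gene Orm1 had 2 UMIs in Cxcl14-led cells and 156 in basal cells with suprabasal keratin, 146-fold lower per UMI (exact 95% counting interval 39.6 to 1213). Cdkn1a, the CDK inhibitor p21, measured 68.8, 142 and 122 CPM in Cxcl14-led cells and 344, 453 and 513 CPM in basal cells with suprabasal keratin, a log2 fold of -1.95 without overlap. Cdkn2b had 2 UMIs in Cxcl14-led cells and 75 in basal cells with suprabasal keratin. Dkkl1 (-5.72), Agpat4 (-5.53) and Serpinb12 (-5.44) also fell, and Slurp1 (-5.07) had an adjusted p of 0.179 without replicate 1 and 0.169 without replicate 2.

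Of 15 tested hemidesmosome and integrin genes 11 rose and 1 fell, and of 14 tested basement membrane genes 8 rose and 0 fell, against 12% of all genes higher. Itgb1, the shared beta chain of many integrins, rose by a log2 fold of 1.05, Itga3 by 1.25 and Bcam, a laminin receptor, by 1.11, whereas Itgb5 fell by 1.58. Npnt, a basement membrane ligand of integrins, measured 72.7, 28.2 and 37.1 CPM in Cxcl14-led cells and 9.44, 9.43 and 9.04 CPM in basal cells with suprabasal keratin, a log2 fold of 2.25 without overlap. Of 19 adhesion and junction genes 12 fell and 3 rose, against 12.5% of all genes lower, with the nectin gene Nectin4 at -3.43.

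Signalling genes higher in Cxcl14-led cells than in basal cells with suprabasal keratin included Il1r2 and Sostdc1. Il1r2 is the decoy receptor for interleukin 1, and Sostdc1 a secreted antagonist of BMP and Wnt signals. Il1r2 measured 198, 290.2 and 186 CPM in Cxcl14-led cells and 16.5, 62.9 and 31.2 CPM in basal cells with suprabasal keratin, a log2 fold of 2.58 ± 0.15 (SE; adjusted p 3.50e-16, edgeR with Benjamini-Hochberg). Sostdc1 measured 222, 97.2 and 167 CPM in Cxcl14-led cells and 14.2, 25.2 and 32.2 CPM in basal cells with suprabasal keratin, a log2 fold of 2.58. Both were free of overlap, as were 33.6% of all genes tested. Of the 8 tested chemokine and receptor genes 5 rose, against 12% of all genes. Ccl27a rose by 2.92 (adjusted p 0.0108, but 0.0959 without replicate 1, 0.119 without replicate 3 and 0.143 with only the compared classes in the fit). Ackr4 rose by 1.67 and Ackr3 by 2.28. Crip1, a LIM protein, rose by 3.08 with an adjusted p of 0.143 without replicate 1 and 0.206 without replicate 3. Krt17, whose level rested on the few high cells described above, was called against cycling cells and against cells with suprabasal keratin, with adjusted p of 0.146 and 0.147 without replicate 2.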

How the data were processed

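Each library was deposited as a matrix of raw UMI counts, with 31053 genes in rows and called cells in columns. The authors used Cell Ranger 3.1.0 and build mm10, per the submitters' processing notes; the annotation version and other settings are not given in the sources used here. Libraries followed a 10x Genomics kit that reads 5' transcript ends, per the labels' protocols. Of the barcodes, 738 of 6078 barcodes failed the filters on genes and mitochondrial UMIs. Doublets were scored with Scrublet in scanpy 1.11.5 and not removed.

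UMIs of each class in each library were added up (4 classes, 12 profiles) and tested in edgeR 4.0.16 (R 4.3.3). The settings were TMM scaling, filterByExpr, robust quasi-likelihood fit and library as a block. Benjamini-Hochberg adjustment covered 9482 genes, the 16 genes of the rule included, and calls were made at 0.05. These 16 were then left out of every count, which leaves 9466 genes. All 4 classes share 1 estimate of the spread. Each library gives every class, so the block pairs profiles by construction; deviations of same-numbered profiles correlated across genes at 0.177, 0.202 and 0.221 between the resting classes, -0.0197 to 0.117 with cycling cells and 0.0373 to 0.0749 with cells carrying suprabasal keratin. CPM values are scaled to total UMIs, fold changes to TMM. The classes of a comparison share cells of the same libraries, and the 3 comparisons share the Cxcl14-led profiles.

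Named genes were the given markers outside the rule; called genes of the same sign in all libraries and at least 50 CPM in the higher class, up to 12 in each direction between the resting classes and 5 in the others, by size; and up to 2 called genes per list with the largest fold. Other genes were picked after their values were seen. Results for 2 genes are not reported here. The cells, the 27 gene lists and the tests were chosen with earlier results of these data known. The fit between the resting classes was tested on simulated counts. The spread between profiles was set the same for every gene, and changes were put only in genes above a count floor. The fit recovered 17.9% of 1.5-fold, 61.2% of 2-fold and 95.5% of 4-fold changes, and 5 of 121 calls were false. Alternatives were RLE scaling, total UMIs, no count filter, DESeq2 1.42.0, no block, only the compared classes, a minimum of 1000 genes with 5% mitochondrial UMIs allowed, no doublets, gates at 5 UMIs or 300 CPM, cells thinned to 3000 UMIs, no minimum for the compared class, each library left out, and, added after seeing the data, no follicle marker cells. Coordinates are from GENCODE M21.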

Additional observations from a re-analysis of the deposited data

How the results depend on the processing

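Between the resting classes 55 genes were called. The number was 136 with no low-count filter, 25 with DESeq2, 8 with no replicate block, 254 with only the compared classes in the fit, 19 with the stricter filter on genes and mitochondrial UMIs, 36 without follicle marker cells, and 31 to 39 when a library was left out. Genes of the lists gave 15 calls, 38 with no filter, 2 with no replicate block, 58 with only the compared classes, and 24 with the gate at 300 CPM. Against cycling cells, 3031 calls became 1395 with thinned cells. Against cells with suprabasal keratin, 2317 became 1536 with DESeq2, 788 with thinned cells and 1362 to 1806 when a library was left out. Thinning left 5762 genes to test; the cause of the other shifts was not tested. The mean share of Cxcl14-led cells ran between 17.1% and 26.2% over its alternatives. Ackr4 had a log2 fold of -0.023 without replicate 3 and 0.20 without replicate 1. Of the values of named genes under these alternatives, 1752 kept direction and call, 308 lost the call, 2 gained one and 1 changed sign. Of the 29 genes named between the resting classes, 2 (Il11ra1 and Lgr5) kept both direction and call in every alternative in which they were tested, against 34 of 55 with cycling cells and 24 of 57 with suprabasal keratin. With 69 Cxcl14-led cells in replicate 1, genes of a few CPM rest on single UMIs there.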
